A study of Mus musculus with 12 samples.

Results

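The nuclear and mitochondrial genes of respiratory complexes II to V were followed in muscle of db/db mice after training, semaglutide or both. The genes were taken by symbol: Sdha to Sdhd, Cyc1, every symbol starting with Uqcr, Cox4i, Cox5, Cox6, Cox7, Cox8 or Atp5, and the mitochondrially encoded mt-Cytb, mt-Co and mt-Atp genes, without pseudogenes. Of 55 such genes in the table, 52 reached 1 FPKM in 3 or more of the 12 libraries, as did 10666 of 22390 features in all. They comprise 4 genes of complex II, 10 of complex III, 18 of complex IV and 20 of complex V, of which 46 are nuclear and 6 mitochondrial. FPKM, fragments per kilobase of transcript scaled to library depth, allows levels of different genes to be set side by side. The 3 genes left out were Cox6b2, listed between 0 and 0.706 FPKM, and Cox7b2 and Cox8c, listed at 0 in all 12 libraries. Cox4i2 passed the limit by the least, with 0.561 to 1.71 FPKM.

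All mice were male C57BL/KsJ db/db animals, obese and diabetic for want of a functional leptin receptor, and were 8 weeks old at random assignment to 4 groups. The combination group received both interventions for 8 weeks. The HIIT group (high-intensity interval training) trained on a treadmill on 5 days a week, each session made of 10 bouts lasting 4 min at 85 to 90% of top speed and of recovery periods lasting 2 min at 50 to 60%. The titles give the exercise as 60 min. The semaglutide group received subcutaneous injections of this long-acting GLP-1 receptor agonist, stated as 30 nmol/kg daily in the protocol and as 0.05 mg/kg in the titles, statements that were not reconciled here. The control group was reared normally. The labels name no injection for HIIT or control mice, so effects of the drug and of being injected cannot be told apart. Each group has 3 libraries, numbered within the group. The labels do not describe the animal behind each library, so p-values measure only the spread between these samples.

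Complex II, succinate dehydrogenase, links the citric acid cycle to the electron transport chain by passing electrons from succinate to ubiquinone. Complex III passes electrons from ubiquinol to cytochrome c and complex IV from cytochrome c to oxygen, both while moving protons across the inner mitochondrial membrane, and complex V uses the proton gradient to make ATP. In skeletal muscle these enzymes are most abundant in oxidative fibres, their amount is known to increase with endurance training, and several complex IV subunits have a heart and muscle isoform beside a ubiquitous one.

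Promoters are shown for 5 nuclear members that stand for the patterns described here: Cox6a1 and Cox8a are ubiquitous isoforms whose levels followed adipocyte transcripts across libraries, Cox8b is the muscle partner of Cox8a, and Uqcrc1 and Uqcrh are subunits of 1 complex whose fold changes lay on opposite sides of 0 in the combination against HIIT. Each sequence covers the 250 bases before the RefSeq start site (GRCm38.p6), 5′ to 3′ on the gene's strand, in lower case with motif matches in capitals. The regions are chr5:115348959-115349208 on the minus strand for Cox6a1, chr19:7217617-7217866 on the minus strand for Cox8a and chr7:140900447-140900696 on the minus strand for Cox8b. Those of complex III are chr9:108936398-108936647 on the plus strand for Uqcrc1 and chr4:116075071-116075320 on the minus strand for Uqcrh.
Cox6a1: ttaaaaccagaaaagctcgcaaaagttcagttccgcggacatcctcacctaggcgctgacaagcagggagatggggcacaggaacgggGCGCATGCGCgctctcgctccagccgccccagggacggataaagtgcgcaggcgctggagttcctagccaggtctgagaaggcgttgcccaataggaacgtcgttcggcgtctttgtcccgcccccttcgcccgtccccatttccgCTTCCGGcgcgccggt
Cox8a: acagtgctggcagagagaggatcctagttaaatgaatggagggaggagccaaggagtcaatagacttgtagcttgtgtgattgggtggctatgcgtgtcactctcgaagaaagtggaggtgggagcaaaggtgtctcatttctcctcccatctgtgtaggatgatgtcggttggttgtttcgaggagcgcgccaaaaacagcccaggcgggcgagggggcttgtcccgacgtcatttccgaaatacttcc
Cox8b: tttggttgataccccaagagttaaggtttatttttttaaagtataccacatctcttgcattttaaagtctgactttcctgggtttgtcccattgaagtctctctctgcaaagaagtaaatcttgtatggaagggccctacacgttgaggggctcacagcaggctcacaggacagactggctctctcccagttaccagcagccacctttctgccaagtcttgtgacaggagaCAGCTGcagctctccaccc
Uqcrc1: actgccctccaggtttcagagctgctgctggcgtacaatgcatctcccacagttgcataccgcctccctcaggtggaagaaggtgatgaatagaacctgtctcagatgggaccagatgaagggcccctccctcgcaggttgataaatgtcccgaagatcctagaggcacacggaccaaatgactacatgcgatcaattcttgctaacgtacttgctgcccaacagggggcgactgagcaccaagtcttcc
Uqcrh: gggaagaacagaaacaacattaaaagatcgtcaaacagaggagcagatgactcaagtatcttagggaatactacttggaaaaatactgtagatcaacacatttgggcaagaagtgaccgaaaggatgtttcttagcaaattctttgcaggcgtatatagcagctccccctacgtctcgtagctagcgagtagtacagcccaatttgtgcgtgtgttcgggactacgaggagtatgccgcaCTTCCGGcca
In Cox6a1 the first capitals hold the NRF1 letters GCATGCGC on both strands, at 162 to 155 and 160 to 153 bases before the start, which overlap. The second capitals are the GABPA letters CCGGAAG, read on the other strand, at 16 to 10 bases before the start. Uqcrh holds the GABPA letters at 10 to 4 bases before its start. Cox8b holds the E-box letters CAGCTG at 19 to 14 bases before its start. None of the 6 motifs searched was found in the windows of Cox8a and Uqcrc1.

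A promoter was matched for 33 of the 46 nuclear members and for 27025 genes in all, and both strands were searched. The NRF1 letters, those of a regulator of nuclear respiratory genes, were found in 5 of the 33 (15.2%), against 2.56% of all genes. GABPA, also called NRF2, a regulator of many respiratory genes, had its letters in 9 (27.3%), against 7.83%. The YY1 letters AAGATGGCG were found in 1 member (3.03%), against 0.71% of genes. The letters AAGGTCA of the estrogen-related receptors were in 2 members (6.06%), against 4.7%. A loose form of the MEF2 box, CTA and TAG with any 4 bases between them, was in 1 member (3.03%), against 3.7%. The E-box was in 2 members (6.06%), against 14.7%. Only these letters in this window were searched, and a match is a description of the sequence. No promoter sequence was matched for Sdhc, Cyc1, Uqcrb, Uqcrc2, Uqcrq, Cox4i1, Cox4i2, Cox6a2, Cox6c, Atp5f1a, Atp5if1, Atp5mj and Atp5mk.

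The deposited FPKM summed to 533412 to 586817 per library, and the low end of the table corresponds to an estimated 17.2 to 21.3 M fragments per library. The 52 members took 21.4 to 29.4% of the FPKM, nearly all of it mitochondrial: the 6 mitochondrial members held 19.1 to 26.6% and the 46 nuclear members 2.31 to 2.85%. The protocol names soleus, a muscle rich in slow and IIa fibres in mice, whereas the fast IIb myosin Myh4 made up 82.3 to 95% of the summed FPKM of Myh1, Myh2, Myh4 and Myh7, of which slow Myh7 gave 0.0559 to 1.52%. Transcripts of other tissues differed between libraries: 5 of 6 hepatocyte markers were in the table and summed to 1.32 to 5.87 FPKM in the combination group, 5.68 to 299 with HIIT, 1.28 to 5.82 with semaglutide and 158 to 1110 in controls. The 6 white adipocyte markers summed to 162 to 640 FPKM in the combination group, 515 to 867 with HIIT, 115 to 371 with semaglutide and 218 to 817 in controls. In bulk muscle, fewer cells of a type and less RNA per cell cannot be told apart.

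Among the nuclear members the mean level over 12 libraries ran from 1.19 FPKM for Cox4i2 to 1338 FPKM for Atp5f1b, and the mitochondrial members lay between 13300 FPKM for mt-Co3 and 38740 FPKM for mt-Co1. Library HIIT 3 had the highest FPKM of 33 of the 46 nuclear and all 6 mitochondrial members. Combination 2 had the lowest level of 16 nuclear members, control 2 of 12 and control 3 of 10, and control 3 also had the lowest level of 5 mitochondrial members. The median nuclear member stood at 239, 246 and 289 FPKM in the combination group, 236, 254 and 307 with HIIT, 251, 260.3 and 239.5 with semaglutide and 288.5, 230.5 and 237 in controls. Combination 3, HIIT 3, semaglutide 2 and control 1 each had the highest median of their group, and all groups overlapped.

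**Figure D1:**
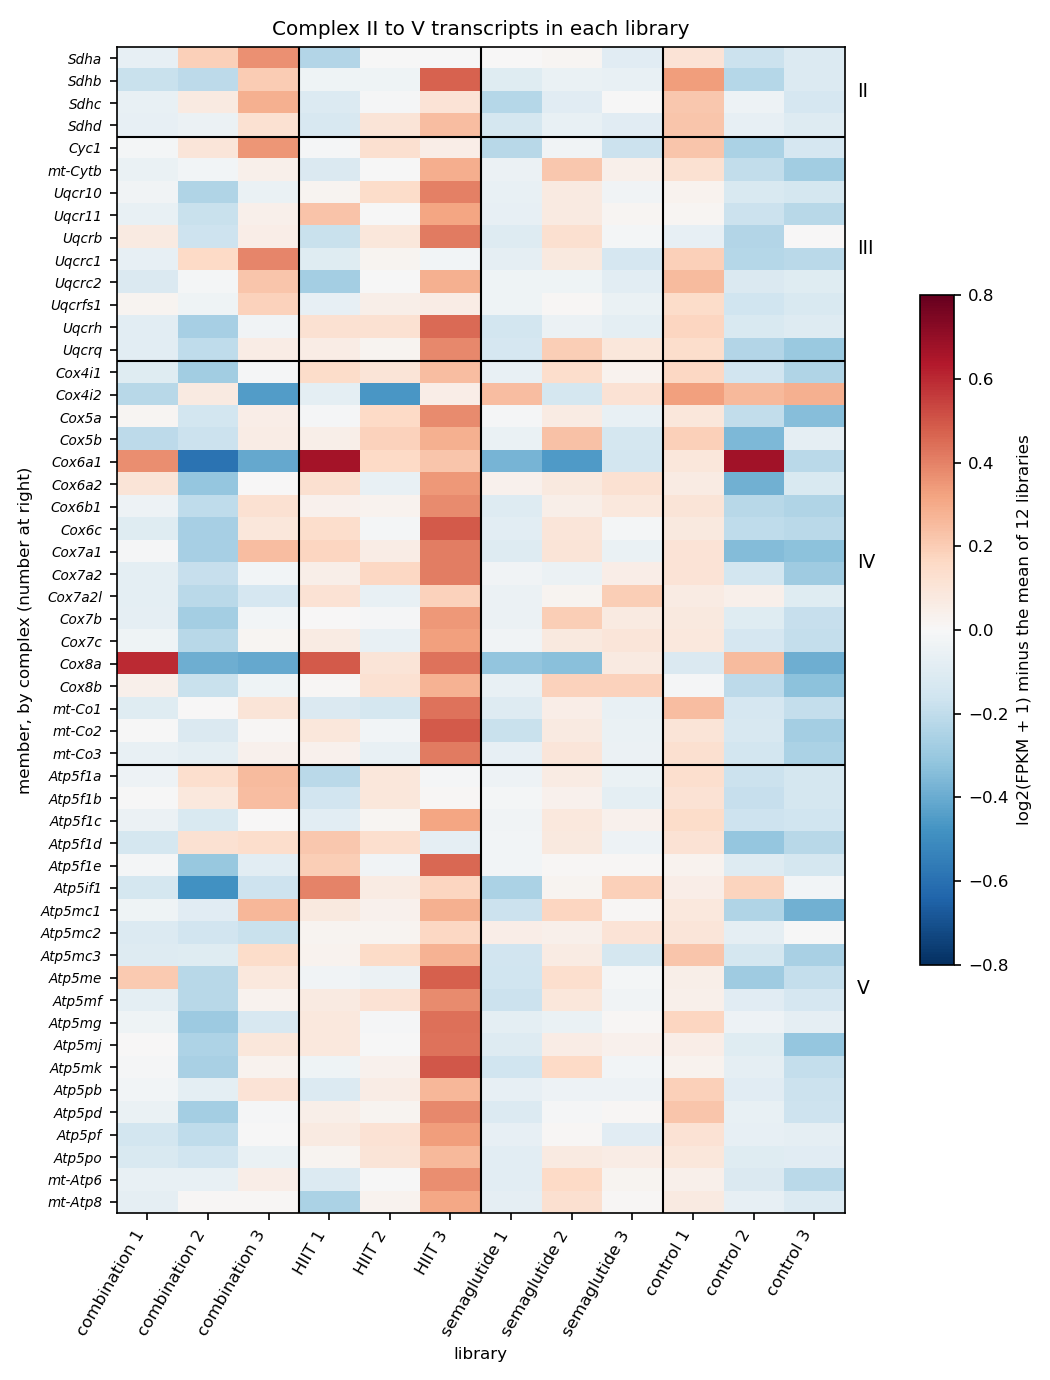
Level of each of the 52 members (rows, by complex) in each of the 12 libraries (columns), as log2(FPKM + 1) minus the mean of that member over the 12 libraries; red is above and blue below the mean. HIIT 3 is red for nearly every member, control 2 and control 3 are mostly blue, and Cox6a1 and Cox8a follow an order of libraries unlike that of the other rows.

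No complex II gene had an unadjusted p under 0.05 with limma in any of the 8 comparisons described here. Sdha, the flavoprotein that oxidises succinate, stood at 250.3, 300 and 338 FPKM in the combination group, 223, 262 and 262 with HIIT, 263, 266 and 246 with semaglutide and 283, 233 and 243 in controls. Combination 3 had the highest level and HIIT 1 the lowest, and all 4 groups overlapped. Sdhb, the iron-sulfur subunit, was at 213, 209 and 278 FPKM in muscles of the combination group, 236, 236 and 336 in the HIIT group, 226, 233 and 232 in the semaglutide group and 305, 206 and 224 in the control group. It was highest in HIIT 3 and control 1, and the 3 HIIT libraries were above the 3 semaglutide libraries by a narrow margin.

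The membrane anchors that bind ubiquinone overlapped likewise. Sdhc was measured at 69.1, 75.5 and 87.6 FPKM in the combination group, 66.7, 71.3 and 77.5 with HIIT, 61.1, 67.6 and 71.6 with semaglutide and 83.5, 69.7 and 65.4 in controls. Sdhd was measured at 173, 176 and 198 FPKM in muscles of the combination group, 167, 196 and 216 in the HIIT group, 165, 175 and 171 in the semaglutide group and 212, 174 and 169 in the control group. In both genes control 1 was the highest of the controls and every group overlapped with every other. The median log2 change of the 4 genes was 0.04 for the combination, 0.02 for HIIT and -0.09 for semaglutide, each against controls. The comparisons against controls share the control libraries.

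Complex III held members that ranked the libraries differently. The mitochondrial mt-Cytb, cytochrome b, stood at 19140, 19540 and 20400 FPKM in the combination group, 18330, 19800 and 24270 with HIIT, 19210, 23000 and 20410 with semaglutide and 21600, 17290 and 16350 in controls. It was highest in HIIT 3 and semaglutide 2 and lowest in control 3. Cyc1, cytochrome c1, which hands electrons to cytochrome c, was at 180.2, 195 and 233 FPKM in muscles of the combination group, 181, 199.7 and 189.5 in the HIIT group, 156, 179 and 162 in the semaglutide group and 213, 153 and 166 in the control group. All 3 combination libraries were above all 3 semaglutide libraries, and the controls overlapped with both.

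Uqcrfs1, the Rieske iron-sulfur protein, varied little, with 305, 293 and 341 FPKM in the combination group, 286, 309.9 and 313 with HIIT, 293, 302 and 289 with semaglutide and 332, 268 and 276 in controls. The large core subunits do not carry electrons. Uqcrc1 had 361, 421 and 496 FPKM in muscles of the combination group, 352, 384 and 371 in the HIIT group, 359, 398 and 343 in the semaglutide group and 430.3, 322 and 325 in the control group. Combination 3, control 1 and combination 2 were its highest libraries, control 2 and control 3 its lowest. Uqcrc2 had 227, 244 and 288 FPKM in the combination group, 204, 246 and 301 with HIIT, 241, 241 and 233 with semaglutide and 294, 228 and 231 in controls, with the lowest value in HIIT 1, the highest in HIIT 3 and overlap of all groups.

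The small subunits of complex III were ordered otherwise. Uqcr10 was at 294, 254 and 289.5 FPKM in the combination group, 304, 332 and 397 with HIIT, 288, 315 and 294 with semaglutide and 305, 275 and 272 in controls. HIIT 2 and HIIT 3 were its highest libraries, and HIIT 1 lay just below control 1. Uqcr11 was at 184, 169.8 and 198 FPKM in muscles of the combination group, 225, 192 and 239 in the HIIT group, 184, 202 and 194 in the semaglutide group and 194, 170.4 and 165 in the control group. HIIT 1 and HIIT 3 were its highest libraries, and HIIT 2 lay just below control 1. Uqcrh, the acidic hinge protein that helps cytochrome c bind, had 286, 252 and 296 FPKM in the combination group, 328, 329 and 414 with HIIT, 273, 293 and 286 with semaglutide and 340.2, 278 and 282 in controls. All 3 HIIT libraries were above all combination and all semaglutide libraries, and control 1 overlapped with them. The remaining members, Uqcrb and Uqcrq, ranged over 238 to 374 and 94.5 to 152 FPKM, each highest in HIIT 3.

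The ratio of Uqcrc1 to Uqcrh, set up after these levels had been seen, was 1.26, 1.67 and 1.67 in the combination group, 1.07, 1.17 and 0.896 with HIIT, 1.31, 1.36 and 1.20 with semaglutide and 1.26, 1.16 and 1.15 in controls. The 3 combination libraries were above the 3 HIIT libraries, and combination 1 equalled control 1 to 3 digits.

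In complex IV the catalytic core is mitochondrial. mt-Co1, which holds the site of oxygen reduction, stood at 35950, 38530 and 41280 FPKM in the combination group, 35400, 34830 and 51990 with HIIT, 35840, 39820 and 36850 with semaglutide and 45680, 35080 and 33630 in controls. mt-Co2, which takes electrons from cytochrome c, stood at 13310, 12320 and 13410 FPKM in muscles of the combination group, 14170, 13140 and 18760 in the HIIT group, 11790, 14020 and 12880 in the semaglutide group and 14350, 12210 and 11030 in the control group. mt-Co3, the third core subunit, stood at 12690, 12530 and 13540 FPKM in the combination group, 13510, 12660 and 17610 with HIIT, 12600, 14150 and 12810 with semaglutide and 14430, 11940 and 11100 in controls. All 3 were highest in HIIT 3 and lowest in control 3, and all groups overlapped. None of the 6 mitochondrial members had an unadjusted p under 0.05 in any comparison with limma.

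Of the nuclear subunits without a muscle isoform, Cox4i1, which binds mt-Co1 early in assembly, was at 604, 533 and 639.7 FPKM in the combination group, 715, 692 and 767 with HIIT, 618, 712 and 659 with semaglutide and 725, 579.7 and 546 in controls. All 3 HIIT libraries were above all 3 combination libraries, while control 1 stood among the HIIT values. Its isoform Cox4i2, known from lung and from cells at low oxygen, was at 0.850, 1.27 and 0.581 FPKM in muscles of the combination group, 1.05, 0.561 and 1.24 in the HIIT group, 1.56, 0.954 and 1.33 in the semaglutide group and 1.71, 1.59 and 1.63 in the control group. The 3 controls were above the 9 libraries of the other groups, and at 733 bases these values rest on an estimated 8 to 25 fragments per library. The 4 endothelial markers summed to 38.4 to 40.1 FPKM in the combination group, 35.9 to 54.0 with HIIT, 39.1 to 43.5 with semaglutide and 51.8 to 57.6 in controls. The 8 slow-fibre markers summed to 199.7 to 946 FPKM in the combination group, 239.8 to 785 with HIIT, 380.1 to 1121 with semaglutide and 916 to 1806 in controls. The part of either list in the Cox4i2 values was not tested. Cox5a had 444, 396 and 454 FPKM in the combination group, 436, 490.4 and 569.8 with HIIT, 436, 459 and 421 with semaglutide and 466, 382 and 346 in controls, highest in HIIT 3 and lowest in control 3, with HIIT 1 below control 1. Cox5b, which binds zinc, had 187, 192 and 225 FPKM in muscles of the combination group, 223, 245 and 264 in the HIIT group, 209, 254 and 196 in the semaglutide group and 246, 168 and 206 in the control group. A pseudogene of Cox5b was listed in the table at 32.4 to 59.7 FPKM, and since reads of near-identical sequence could have been divided between them, the Cox5b values are uncertain.

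The isoform pairs of complex IV were dominated by the muscle types to different degrees. Cox6a2, the heart and muscle isoform, had 655, 494 and 612 FPKM in the combination group, 668, 587 and 777 with HIIT, 625, 646 and 665 with semaglutide and 641, 468 and 562 in controls. Cox6a1, its ubiquitous partner, had 26.8, 13.2 and 15.1 FPKM in muscles of the combination group, 33.1, 23.0 and 24.1 in the HIIT group, 15.6, 14.6 and 18.4 in the semaglutide group and 21.9, 33.2 and 17.5 in the control group. Cox6a1 was highest in control 2 and HIIT 1 and lowest in combination 2 and semaglutide 2, an order not shared by Cox6a2, which was lowest in control 2. Cox7a1, also a heart and muscle isoform, had 145, 121 and 173 FPKM in the combination group, 164, 152 and 194 with HIIT, 136, 157 and 141 with semaglutide and 158, 114 and 116 in controls. Cox7a2, its ubiquitous partner, had 116, 108 and 121 FPKM in muscles of the combination group, 127, 138 and 163 in the HIIT group, 120.4, 119 and 128 in the semaglutide group and 132, 111 and 101 in the control group. Both were highest in HIIT 3, and for both the controls and HIIT overlapped through control 1. Cox7a2l, a related protein that joins complexes III and IV into supercomplexes, had 78.4, 71.4 and 75.4 FPKM in the combination group, 90.1, 79.6 and 94.1 with HIIT, 80.3, 84.2 and 95.2 with semaglutide and 86.7, 85.4 and 77.6 in controls. Its 3 combination libraries were below all 3 semaglutide libraries and all 3 HIIT libraries, and combination 1 lay above control 3.

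Cox8b, the heart and muscle isoform of a small membrane subunit, had 181, 156 and 172 FPKM in the combination group, 178, 192 and 214 with HIIT, 169, 200.1 and 200.4 with semaglutide and 175, 152 and 140.2 in controls. All 3 HIIT libraries were above all 3 controls. Cox8a, its ubiquitous partner, had 45.7, 22.6 and 22.3 FPKM in muscles of the combination group, 42.4, 32.2 and 40.9 in the HIIT group, 23.9, 23.5 and 31.6 in the semaglutide group and 27.5, 35.9 and 22.6 in the control group. It was highest in combination 1, HIIT 1 and HIIT 3, which are not the libraries where Cox8b was highest, apart from HIIT 3. The remaining members, Cox6b1, Cox6c, Cox7b and Cox7c, were between 184 and 630.1 FPKM, and each was highest in HIIT 3.

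In complex V the catalytic subunits were the most abundant nuclear members. Atp5f1b, the beta subunit, had 1328, 1415 and 1581 FPKM in the combination group, 1198, 1420 and 1342 with HIIT, 1318, 1367 and 1261 with semaglutide and 1445, 1171 and 1210 in controls. Atp5f1a, the alpha subunit, had 879.6, 994 and 1078 FPKM in muscles of the combination group, 780, 963 and 902 in the HIIT group, 880.3, 948 and 872 in the semaglutide group and 993, 804 and 823 in the control group. Both were highest in combination 3, and control 1 was the highest of the controls. The ratio of Atp5f1a to Atp5f1b stayed between 0.651 and 0.702 in the 12 libraries. Atp5if1, which encodes the inhibitor that blocks ATP hydrolysis by the enzyme when the proton gradient fails, was far lower, with 12.6, 9.69 and 12.3 FPKM in the combination group, 18.7, 14.7 and 15.8 with HIIT, 11.6, 14.2 and 16.0 with semaglutide and 14.6, 15.9 and 13.7 in controls. All 3 combination libraries were below all 3 HIIT libraries and all 3 controls, and combination 2 was the lowest of the 12. These values rest on an estimated 111 to 183 fragments per library.

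The mitochondrial subunits of the proton channel, mt-Atp6 and mt-Atp8, overlap on 1 transcript, so their values are not independent. mt-Atp6 had 18210, 18200 and 19700 FPKM in the combination group, 17600, 18890 and 24560 with HIIT, 17920, 21160 and 19290 with semaglutide and 19510, 17470 and 16320 in controls. mt-Atp8 had 14310, 15140 and 15100 FPKM in muscles of the combination group, 12640, 15330 and 18650 in the HIIT group, 14320, 16440 and 15130 in the semaglutide group and 15830, 14340 and 13940 in the control group. Both were highest in HIIT 3, and every pair of groups overlapped.

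Atp5mc1, Atp5mc2 and Atp5mc3 encode the same mature protein, the c subunit of the rotor ring, with different targeting sequences. Of their summed FPKM, Atp5mc1 held 39.3 ± 1.4% in the combination group, 37.8 ± 1.3% with HIIT, 38.5 ± 1.6% with semaglutide and 35.6 ± 0.67% in controls (SD, n = 3 each). Its share was 34.9 to 36.1% in the 3 controls, under the 9 libraries of the other groups, which began at 36.4%. Atp5mc2 held 12.8 ± 1.4%, 13.4 ± 0.35%, 15.0 ± 1.4% and 15.1 ± 1.7% in the combination, HIIT, semaglutide and control groups (SD, n = 3 each). These shares were not tested. The stalk, membrane and accessory members of complex V not given by library ranged from 80.3 FPKM for Atp5me in control 2 to 791 FPKM for Atp5f1c in HIIT 3.

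Fold changes were estimated as differences of log2(FPKM + 1) with limma, with Benjamini-Hochberg adjustment over all 10666 genes, and are given with their standard errors (SE). No member passed an adjusted p of 0.05 in any of the 8 comparisons, nor in limma's F test over the 4 groups, where 6.11% of all genes passed and 4 members had an unadjusted p under 0.05, against 28.5% of genes. The smallest F-test adjusted p values of limma were 0.139 for Atp5if1, 0.161 for Uqcrh and 0.174 for Cox4i2. The SE of a comparison between 2 groups ran from 0.08 for Atp5mc2 to 0.27 for Cox6a1 with a median of 0.13, and the 95% interval of the median member reached 0.28 to either side of its estimate. A difference below that size does not reach an unadjusted p of 0.05 in the median member. To pass after adjustment over all genes it has to be larger. With 3 libraries against 3, complete separation has a two-sided permutation p of 0.1, the smallest possible. The share of all genes whose libraries lie apart is not given, so separation is stated below as a description only.

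HIIT alone was set against controls to show training without the drug. With limma 0 members and 0% of all genes passed, while 10 members had an unadjusted p under 0.05, 9 of them higher and 1 lower, as did 8.93% of all genes, with 3.29% higher and 5.63% lower. The estimates lay mostly on 1 side: 48 of 52 members were above 0, against 44.1% of all genes, with a median of 0.19 against -0.03 over all genes. By complex, the nuclear medians were 0.02 for complex II, 0.21 for III, 0.27 for IV and 0.17 for V, and that of the 6 mitochondrial members was 0.18. Without HIIT 3, the library in which most members were highest, 42 of 52 members were above 0 (51.2% of genes) and the median was 0.10. The 10 members with an unadjusted p under 0.05 became 25 without control 1, 16 without HIIT 2 and 3 without control 2. They became 2 without HIIT 3, 1 without control 3 and 5 after rescaling to the nuclear-encoded features. Of all genes 8.42, 8.28, 7.93, 7.67, 6.92 and 9.28% had such a p in the same order.

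The 5 members with the smallest p in that comparison had adjusted p of 0.437 to 0.47 with limma. Uqcr11 averaged 219 ± 24.4 FPKM with HIIT and 176 ± 15.4 FPKM in controls (SD, n = 3 each), a log2 change of 0.31 ± 0.10 (SE). Cox8b averaged 194 ± 18.3 and 156 ± 17.8 FPKM in HIIT and control muscle, with a log2 change of 0.32 ± 0.11 and no overlap of libraries. Cox7a2 and Cox5a had log2 changes of 0.32 ± 0.12 and 0.33 ± 0.13 with overlapping libraries. Cox4i2 was the exception in direction, with 0.948 ± 0.349 FPKM under HIIT and 1.64 ± 0.0625 FPKM in controls, a log2 change of -0.46 ± 0.17 with libraries apart.

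Semaglutide alone against controls gave 0 called members with limma, against 3.72% of all genes called. A single member, Cox8b, had an unadjusted p under 0.05, as did 18.9% of genes, at 189.9 ± 18.0 FPKM with semaglutide and 156 ± 17.8 FPKM in controls (log2 change 0.29 ± 0.11, adjusted p = 0.196 with limma). Next in order of p were Cox6a1 with a log2 change of -0.51 ± 0.27, Cox6a2 with 0.22 ± 0.14, mt-Cytb with 0.19 ± 0.13 and Uqcr11 with 0.13 ± 0.10, at adjusted p of 0.343 to 0.524 with limma. Members above 0 numbered 36 of 52, against 41.5% of all genes, and their median was 0.06 against -0.05. The nuclear medians by complex were -0.09, 0.04, 0.11 and 0.05 from complex II to V. Without control 1, 8 members had an unadjusted p under 0.05, all higher, against 5.09% of genes higher and 15.7% in either direction.

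The combination against controls gave 0 called members with limma, against 6.26% of all genes called. On the deposited scale Cox4i2 and Atp5if1 had an unadjusted p under 0.05, as did 25.9% of genes, and both were lower in the combination group, as were 21.6% of genes at that level. Cox4i2 had 0.899 ± 0.346 and 1.64 ± 0.0625 FPKM in combination and control muscle, a log2 change of -0.49 ± 0.17 (adjusted p = 0.105 with limma). Atp5if1 had 11.5 ± 1.59 FPKM in the combination group and 14.7 ± 1.1 FPKM in controls, a log2 change of -0.33 ± 0.14 (adjusted p = 0.152 with limma). Atp5mc2 (-0.16 ± 0.08, libraries apart), Sdha (0.22 ± 0.12) and Uqcrc1 (0.25 ± 0.14) followed at adjusted p of 0.227 to 0.276 with limma. The members' median was 0.02, above the median of all genes at -0.13, and 33 of 52 were above 0 against 29.1% of genes. When libraries were rescaled by median-of-ratios factors, the median of all genes came to -0.01 and that of the members to 0.17, with 47 of 52 above 0 against 48.9% of genes. On that scale 7 members had an unadjusted p under 0.05, against 25.4% of genes, 11.9% higher and 13.5% lower. Cox4i2 was lower and Cox8b, Uqcrc1, Sdha, Atp5f1d, Atp5f1b and Atp5mc1 were higher. Atp5if1 was at -0.20 there, with an unadjusted p of 0.118 by limma. On the deposited scale 42 members were above 0 without control 1 or combination 2. The count was 24 without control 2, 21 without combination 3 and 19 without control 3, where the median was below 0. Of all genes 28.6, 32, 34.5, 32 and 26.7% were above 0 in that order. Without control 1, 8 members had an unadjusted p under 0.05, 7 of them higher, against 3.72% of genes higher and 21.4% in either direction. Without combination 1 it was 5 members, against 33% of genes.

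The combination against HIIT, the effect of adding semaglutide to training, gave the smallest p values between 2 groups. Again 0 members were called with limma, against 3.01% of all genes, and 13 members had an unadjusted p under 0.05, all lower in the combination. That is 25% of the members, against 27.1% of genes in either direction and 20.4% lower. Atp5if1 averaged 11.5 ± 1.59 FPKM in the combination and 16.4 ± 2.07 FPKM with HIIT (log2 change -0.48 ± 0.14, adjusted p = 0.0708 with limma). Uqcrh averaged 278 ± 23.3 and 357 ± 49.3 FPKM in combination and HIIT muscle (-0.36 ± 0.12, adjusted p = 0.093 with limma). Atp5pf, a stalk subunit, averaged 268 ± 19.5 and 328 ± 33 FPKM in combination and HIIT muscle (-0.29 ± 0.10, adjusted p = 0.0949 with limma), and Atp5mc2 averaged 156 ± 3.9 and 181.5 ± 10.9 FPKM in the same groups (-0.22 ± 0.08, adjusted p = 0.11 with limma). In these 4 the libraries of the groups lay apart, and those of Atp5f1e, the epsilon subunit, overlapped (-0.34 ± 0.12, adjusted p = 0.111 with limma). Without the share of all genes that lay apart, this separation cannot be read as particular to these members.

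Of the 52 members, 44 were below 0 in that comparison, and 32.4% of all genes were above 0. The medians were -0.20 for the members and -0.12 for all genes. All 15 nuclear members of complex IV and 16 of 18 of complex V were below 0, with medians of -0.22 each. Complex II was split 2 to 2 with a median of 0.01, and complex III had 4 nuclear members above and 5 below 0. Uqcrc1 and Sdha were among the members above 0, at 0.19 ± 0.14 and 0.24 ± 0.12. After median-of-ratios rescaling the members' median was -0.07 and 19 of 52 were above 0, against 47.7% of genes. On that scale 2 members had an unadjusted p under 0.05, Atp5if1 lower and Sdha higher, against 26.9% of genes. The count was also 2 after rescaling to the nuclear-encoded features, against 26.6% of genes. Without HIIT 3 the median was -0.10 and 35 of 52 were below 0, while 30% of genes were above it. Without that library 3 members had an unadjusted p under 0.05, against 24.8% of genes. Without combination 2 it was 4 members, against 16.8% of genes.

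Without combination 1, limma called 3 members, Atp5if1, Cox6a1 and Cox8a, all lower in the combination, and 14.8% of all genes. Combination 1 had 640.0 FPKM of the white adipocyte markers, against 162 and 176 in the other 2 libraries of its group. Same-numbered libraries of these 2 groups deviated together, with correlations of 0.294, 0.27 and 0.224. A block for the replicate number was then fitted to these 6 libraries alone, with 2 residual degrees of freedom. It was chosen after these correlations had been seen in the same data, so its p values do not count as independent support. In it limma called Cox6a1 (-0.56 ± 0.12, adjusted p = 0.0402) and Atp5if1 (-0.48 ± 0.10, adjusted p = 0.0424). The same fit called 7.42% of all genes. Without the block the same 6 libraries gave 0 called members and 0.0844% of genes called. In that fit 6 members had an unadjusted p under 0.05, against 20.3% of genes. The block over all 12 libraries also gave 0 called members. The white adipocyte and macrophage marker sums were lower in the combination library of each pair as well. Their part in these calls was not tested.

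**Figure D2:**
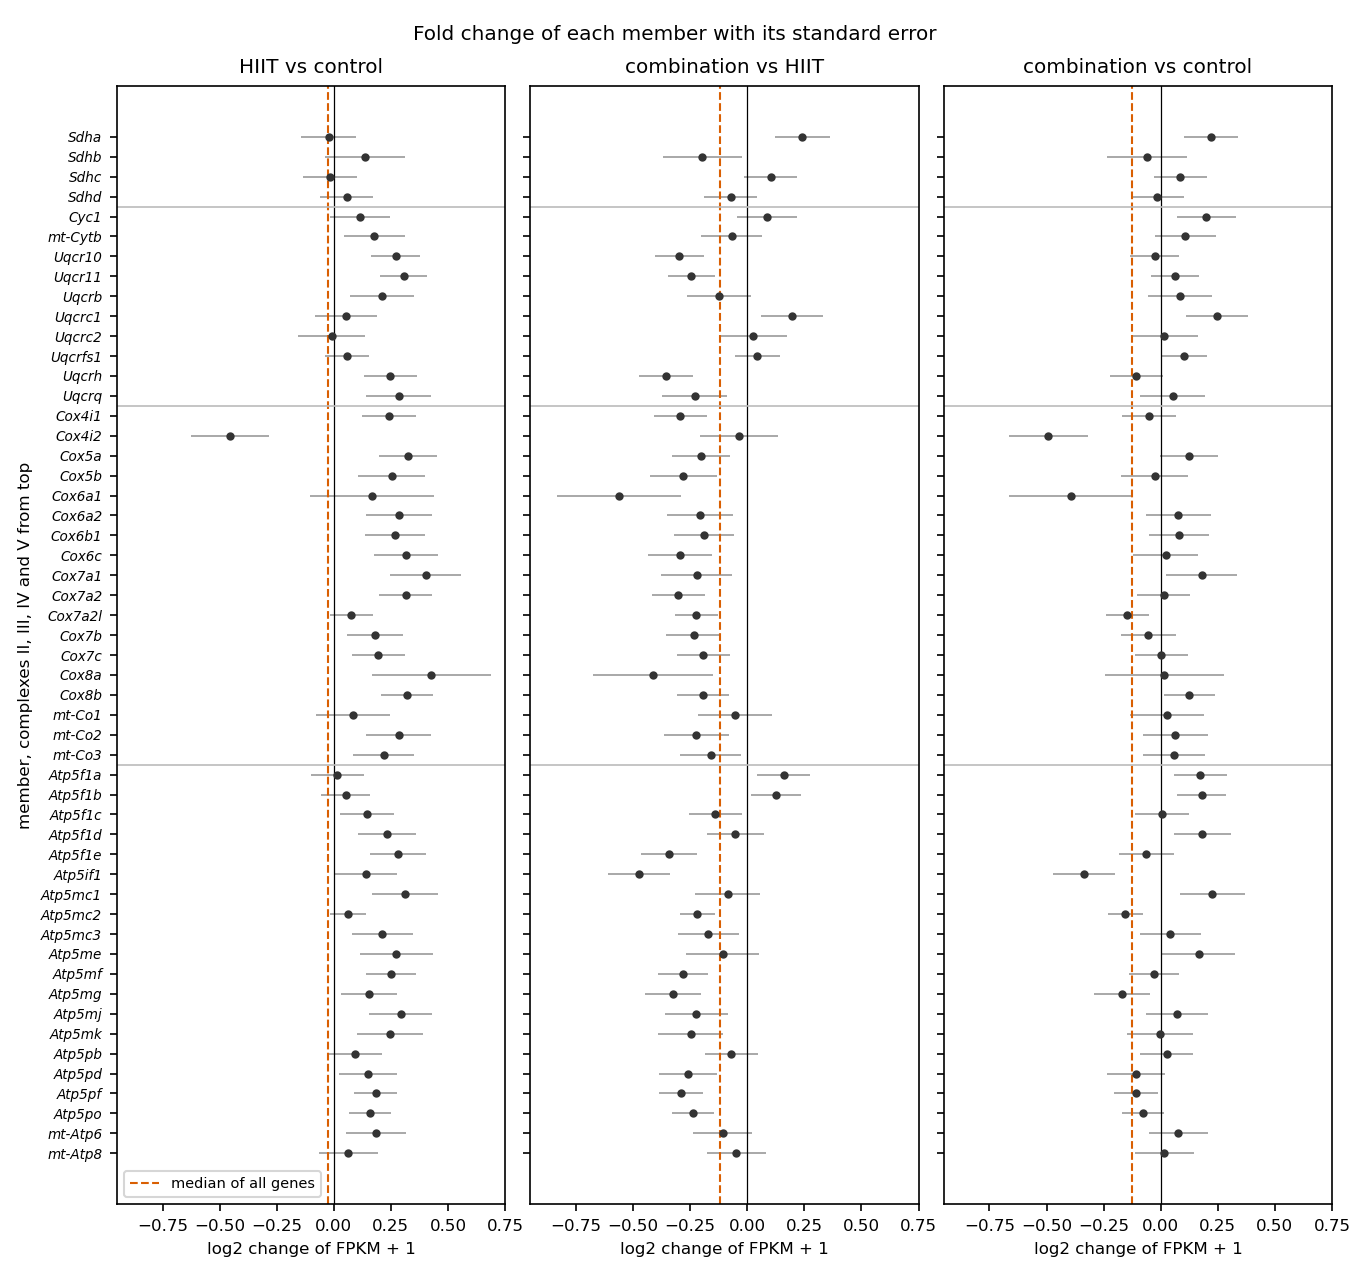
Log2 change of FPKM + 1 (points) with its standard error (bars) for the 52 members in 3 comparisons, by complex from top to bottom; the dashed line is the median of all 10666 genes. In HIIT vs control 48 points lie right of 0 and Cox4i2 stands at -0.46, and in combination vs HIIT 44 points lie left of 0 while Sdha and Uqcrc1 lie right of it.

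The combination against semaglutide, the effect of adding training to the drug, gave 0 called members with limma, against 0.00938% of all genes, and 1 member with an unadjusted p under 0.05, as did 12.1% of genes. That member was Atp5mc2, with 156 ± 3.9 and 181.2 ± 4.7 FPKM in combination and semaglutide muscle and libraries apart (-0.22 ± 0.08, adjusted p = 0.326 with limma). Cyc1 (0.29 ± 0.13, libraries apart), Cox7a2l (-0.20 ± 0.09, libraries apart), Atp5if1 (-0.25 ± 0.14) and Sdhc (0.21 ± 0.12) had adjusted p of 0.412 to 0.508 with limma. In complex II all 4 genes were above 0, and in complex IV 12 of 15 nuclear members were below 0. Over all complexes 20 of 52 members were above 0, against 34.6% of genes, with a median of -0.05. The direction turned with the scaling: after median-of-ratios rescaling 37 members were above 0, against 52% of genes, and the median was 0.05. It also turned without combination 2 and without semaglutide 2, where 27 members were above 0 and the median was 0.01. Of all genes 38.2% and 31.8% were above 0 in these settings. Without combination 1, 5 members had an unadjusted p under 0.05, 4 of them higher, against 2.84% of genes higher and 21.6% in either direction.

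Each intervention was also averaged over the other, which sets 6 libraries against 6. Semaglutide, so averaged, gave 0 called members with limma against 16.8% of all genes called, and 5 members with an unadjusted p under 0.05, all lower, against 34.3% of genes in either direction and 25% lower. These were Atp5if1 (-0.28 ± 0.10, adjusted p = 0.0673 with limma), Cox6a1 (-0.53 ± 0.19, adjusted p = 0.0781), Uqcrh (-0.21 ± 0.08, adjusted p = 0.0929), Atp5pf (-0.17 ± 0.07, adjusted p = 0.112) and Atp5mg (-0.19 ± 0.09, adjusted p = 0.14). Without combination 1, limma called Atp5if1, Cox6a1 and Cox8a and 23.9% of all genes, and without control 3 it called Cox6a1 and 16% of all genes. Averaged semaglutide left 14 of 52 members above 0, against 34.5% of genes, with a median of -0.05. That count was 27 without HIIT 3 and 25 without control 1, against 32.7% and 34.2% of genes. After median-of-ratios rescaling it was 33, against 48.2% of genes, with a median of 0.04. On that scale 2 members, Atp5if1 and Cox6a1, had an unadjusted p under 0.05, against 34.6% of genes. On the deposited scale the 5 members with such a p became 2 without control 1, HIIT 3, semaglutide 1 or combination 2. They became 3 without semaglutide 3. Of all genes 30.5, 33.2, 29.3, 27.5 and 31.8% had such a p in that order. Averaged training left 47 of 52 members above 0, against 34.7% of genes. Without HIIT 3 it left 36, against 38.4% of genes. Training, so averaged, gave 0 called members and 0% of genes with limma, and 1 member, Cox4i2, with an unadjusted p under 0.05 (-0.36 ± 0.12, adjusted p = 0.35), as did 12.6% of genes. Without control 1 that count was 9, against 11.2% of genes. Cyc1, Cox7a1, Atp5mc1 and Cox5a came next with log2 changes of 0.20 ± 0.09, 0.21 ± 0.11, 0.18 ± 0.10 and 0.15 ± 0.09, at adjusted p of 0.40 to 0.48 with limma.

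The interaction asks whether the effect of training differed with and without semaglutide. It gave 0 called members and 0% of genes with limma, and 9 members with an unadjusted p under 0.05, all below 0, against 7.71% of genes in either direction and 5.06% below 0. A value below 0 means a smaller or more negative effect of training in mice that also received semaglutide. Cox8b stood at -0.48 ± 0.16, Uqcr11 at -0.38 ± 0.15, Atp5mc2 at -0.28 ± 0.11, Cox7a2 at -0.40 ± 0.16 and Cox4i1 at -0.41 ± 0.17, all with an adjusted p of 0.632 with limma. The median was -0.27 over the members and -0.06 over all genes, and 42 of 52 members were below 0, while 39.6% of genes were above it. Without HIIT 3, 38 of 52 were below 0 and the median was -0.16, while 36.2% of genes were above 0. The 9 members with an unadjusted p under 0.05 became 1, Cox8b, after median-of-ratios rescaling or rescaling to the nuclear-encoded features, where 8.1% and 7.9% of genes had such a p. The count was 1 without HIIT 3 or control 2, 2 without control 3 or combination 2 and 3 without semaglutide 2 or semaglutide 3. It was 14 without HIIT 2 and 19 without control 1. Of all genes 7.38, 7.34, 6.84, 4.52, 6.3, 5.03, 7.5 and 6.4% had such a p in that order.

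In some comparisons the fold changes varied with transcript length. Over the 46 nuclear members, the length of the longest coding transcript and the log2 change had a rank correlation of 0.584 for the combination against HIIT and -0.556 for HIIT against controls, 2 comparisons that share the HIIT libraries. It was 0.552 for the interaction, 0.452 for semaglutide averaged, 0.404 for the combination against semaglutide, 0.29 for the combination against controls, -0.184 for semaglutide against controls and -0.1 for training averaged. Over the 10522 genes with a known length the correlations were 0.189 for the combination against HIIT and -0.271 for HIIT against controls. In the combination against HIIT, 28 members under 1000 bases had a median of -0.25 and 18 longer ones of -0.06. For HIIT against controls the same medians were 0.25 and 0.09. Among all genes, the short and long medians were -0.28 and -0.11 for the combination against HIIT, and 0.14 and -0.03 for HIIT against controls. Members are not independent replicates, so these correlations are given without a p. The lengths come from GENCODE M21, and the part of length, RNA quality or fragment size in these differences was not tested.

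**Figure D3:**
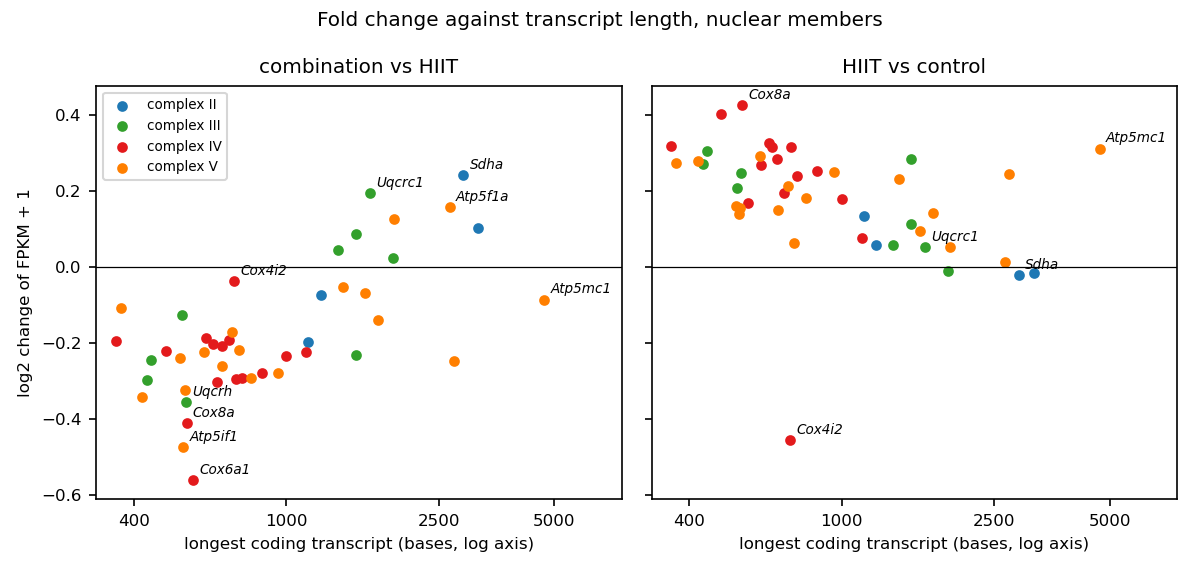
Log2 change of FPKM + 1 against the length of the longest coding transcript (log axis) for the 46 nuclear members, coloured by complex. In combination vs HIIT the long transcripts Sdha, Uqcrc1 and Atp5f1a lie above 0 and the short Cox6a1, Atp5if1, Cox8a and Uqcrh lie lowest, while in HIIT vs control most short transcripts lie above 0.

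Myosin transcripts differed between libraries of the same group. The levels of 6 members, 1 or 2 per complex, were therefore set against 4 myosin heavy chains over the 12 libraries. Likewise, 6 complex IV isoforms were set against adipocyte markers. These 30 relations were chosen after the data had been seen, on log2(FPKM + 1), with permutation tests of 100000 resamples and Benjamini-Hochberg adjustment over the 30. The adjustment does not cover that choice, and the shuffles ran over all 12 libraries without regard to group. Myh1, the IIx myosin of fast fibres that are more oxidative than IIb fibres, stood at 284, 382 and 683 FPKM in the combination group, 242, 388 and 416 with HIIT, 256, 463 and 279 with semaglutide and 673, 178 and 221 in controls. Its highest libraries, combination 3 and control 1, were among the 3 in which the median nuclear member was highest, and its lowest, control 2, was also the lowest for the members.

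Uqcrc1 followed Myh1 with r = 0.92 and rho = 0.93 (n = 12, permutation p = 1e-05 for r, the smallest these resamples can give, adjusted p = 0.0003). Without combination 3 and control 1, the libraries farthest from the median, r was 0.872, and within groups it was 0.947. Atp5f1b followed it with r = 0.914 and rho = 0.93 (permutation p = 4e-05, adjusted p = 0.0006), at 0.874 without those libraries and 0.936 within groups. For Sdha r was 0.818 and rho 0.825 (permutation p = 0.00084, adjusted p = 0.0042), at 0.71 and 0.864, and for mt-Co1 r was 0.685 and rho 0.783 (permutation p = 0.013, adjusted p = 0.038), at 0.607 and 0.715. Cox4i1 and Uqcrh did not pass, with r of 0.459 and 0.35 and adjusted permutation p of 0.3 and 0.53.

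With the IIb myosin Myh4 the relations that passed were negative, those of Uqcrh, Cox4i1 and mt-Co1. Uqcrh had r = -0.889 and rho = -0.769 (permutation p = 0.00025, adjusted p = 0.0022), at -0.674 without HIIT 3 and control 1 and -0.934 within groups. Cox4i1 had r = -0.837 and rho = -0.867 (permutation p = 0.00029, adjusted p = 0.0022), at -0.791 and -0.871. For mt-Co1 r was -0.754 and rho -0.497 (permutation p = 0.007, adjusted p = 0.023), but r was -0.002 without HIIT 3 and control 1, so that relation rests on those libraries. mt-Co1 also followed the IIa myosin Myh2 with r = 0.845 and rho = 0.762 (permutation p = 0.0017, adjusted p = 0.0065), at 0.624 without the same libraries and 0.907 within groups. The relations with Myh4 depended on the scaling: after median-of-ratios rescaling r was -0.546 for Uqcrh, -0.481 for Cox4i1 and -0.221 for mt-Co1, with adjusted permutation p of 0.17, 0.26 and 0.64, so none passed, and mt-Co1 did not pass after rescaling to the nuclear-encoded features (adjusted permutation p = 0.11). After median-of-ratios rescaling Cox4i1 passed with Myh1 (r = 0.737, adjusted permutation p = 0.026), and Cox4i1 and Uqcrh passed with Myh2 (r of 0.684 and 0.678, adjusted permutation p of 0.045 and 0.049). Of the 6 members, none passed with the slow myosin Myh7, whose adjusted permutation p for r were 0.6 to 0.95.

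As a description over all members, the correlation with Myh1 over the 12 libraries had a median of 0.474 and ran from -0.431 to 0.934, and 25 of 52 members (48.1%) were above 0.5. Over all genes the median was -0.258, and 3.37% were above 0.5. The nuclear median was 0.769 in complex II, 0.591 in III, 0.392 in IV and 0.41 in V, and the mitochondrial median was 0.579. The size of these values depended on the scaling: after median-of-ratios rescaling the median was 0.735 and 86.5% of members were above 0.5, against 9.6% of genes. Other myosins had such relations as well. On the deposited scale the members' median was 0.553 with Myh2, where 65.4% were above 0.5, against 5.39% of genes. It was -0.712 with Myh4 and -0.004 with Myh7, against -0.167 and 0.185 over all genes. After median-of-ratios rescaling the members' medians were 0.591 with Myh2, -0.3 with Myh4 and -0.189 with Myh7. The points share library, depth and scaling, and the 4 myosins made up 0.919 to 1.77% of the FPKM. Whether fibre type composition set the differences between groups was not tested.

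**Figure D4:**
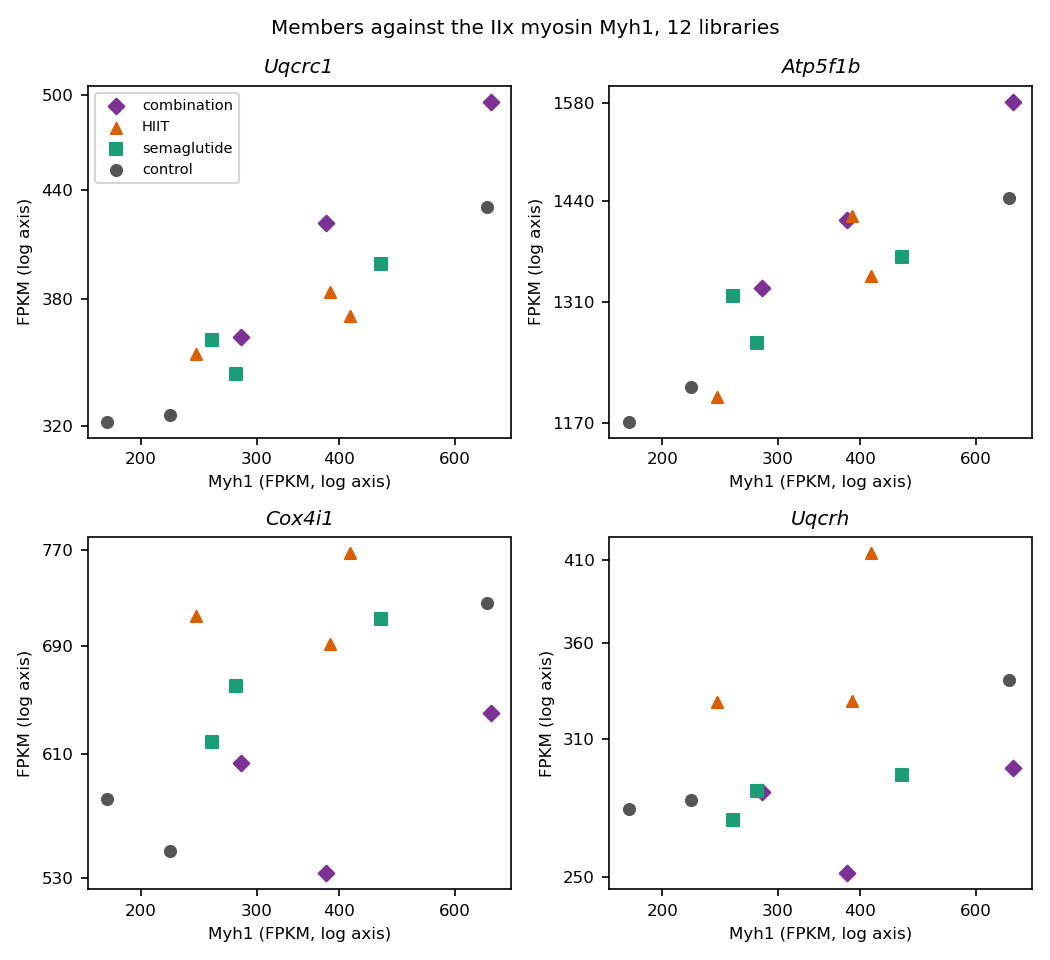
FPKM of 4 members against FPKM of the IIx myosin Myh1 in the 12 libraries, both on log axes, with symbols for the 4 groups. Uqcrc1 and Atp5f1b climb with Myh1 through all groups (r of 0.92 and 0.914), whereas Cox4i1 and Uqcrh follow it less closely (r of 0.459 and 0.35), and for both the 3 HIIT points lie above the 3 combination points.

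Muscle-type isoforms were compared as a share of the FPKM of each pair, with an exact permutation test within strata of the other intervention, two-sided, whose 400 arrangements allow a smallest p of 0.005. Cox6a2 held 97.3 ± 0.62% of the Cox6a pair with semaglutide and 95.9 ± 1.4% without it (SD, n = 6 each), a difference of 1.36 percentage points (exact permutation p = 0.04, adjusted over 6 tests p = 0.24). The lowest library was control 2 with 93.4%, and the 3 semaglutide libraries were at 97.3 to 97.8%. Cox8b held 86.5 ± 3.5% of the Cox8 pair with semaglutide and 84.0 ± 2.6% without it (exact permutation p = 0.175, adjusted p = 0.414). Cox7a1 held 54.9 ± 2.6% of the Cox7a pair with semaglutide and 53.7 ± 1.9% without it (exact permutation p = 0.345, adjusted p = 0.414). For training, the differences were -0.0252 points for Cox6a2, 1.58 for Cox7a1 and -1.83 for Cox8b, with exact permutation p of 0.98, 0.245 and 0.325. No share passed after adjustment.

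Cox6a1 and Cox8a varied more within groups than their muscle partners, with coefficients of variation of 29% and 26.9%, against 12.6% for Cox6a2 and 9.52% for Cox8b. In the third pair the ubiquitous Cox7a2 varied less, at 10.4%, than Cox7a1 at 14.6%. Cox6a1 followed the mean log2 level of the 6 white adipocyte markers (Adipoq, Plin1, Fabp4, Lep, Cfd and Retn) with r = 0.834 and rho = 0.811 over the 12 libraries (permutation p = 0.0017, adjusted p = 0.0065). Without the 2 libraries farthest from the median, HIIT 1 and semaglutide 2, r was 0.775, and within groups 0.835. Cox8a followed them with r = 0.899 and rho = 0.769 (permutation p = 0.00041, adjusted p = 0.0025), at 0.878 and 0.851. Cox6a2, Cox7a1, Cox8b and Cox7a2 had r of 0.092, 0.072, 0.194 and 0.301, with adjusted permutation p of 0.6 to 0.91. Adipoq itself, which encodes adiponectin and is made by adipocytes, stood at 52.8, 15.8 and 10.7 FPKM in the combination group, 77.6, 51.2 and 39.9 with HIIT, 9.60, 8.54 and 30.5 with semaglutide and 6.78, 44.8 and 14.4 in controls. Adipocyte markers were not the only ones with such an order. The 5 macrophage markers summed to 74.1 FPKM in combination 1, 121.5 in HIIT 1, 134.8 in HIIT 3 and 86.7 in control 2. In the other libraries they summed to 13.55 to 28.51 FPKM. Cox6a1 and Cox8a were also highest in those same libraries. The parts of adipocyte and macrophage RNA in the Cox6a1 and Cox8a values of the groups were not tested.

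**Figure D5:**
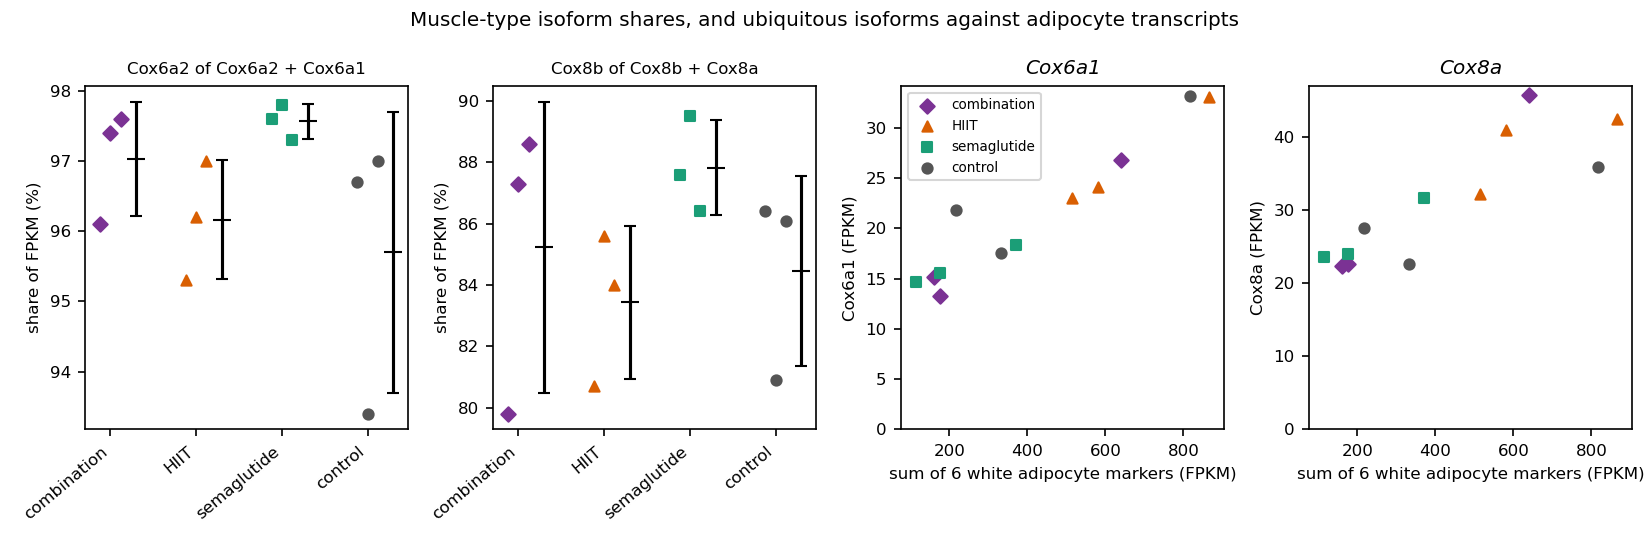
Left panels: share of the muscle isoform in the FPKM of the Cox6a and Cox8 pairs (%), per library by group, with mean and SD (n = 3) beside the points; the axes do not start at 0. Right panels: Cox6a1 and Cox8a against the sum of 6 white adipocyte markers (FPKM) in the 12 libraries, where both climb together with the markers.

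Partners of the complexes were examined from a list of 57 assembly factors, carriers and electron donors, of which 55 were tested. With limma 0 of them passed in each of the 8 comparisons, and 3, 3, 6, 11, 8, 7, 6 and 8 had an unadjusted p under 0.05 for HIIT, semaglutide and the combination against controls, the combination against HIIT and against semaglutide, semaglutide averaged, training averaged and the interaction. Of all genes 8.93, 18.9, 25.9, 27.1, 12.1, 34.3, 12.6 and 7.71% had such a p in the same order. The partners' median log2 changes were 0.10, 0.00, -0.03, -0.13, 0.01, -0.07, 0.05 and -0.09 in that order, and those of all genes -0.03, -0.05, -0.13, -0.12, -0.07, -0.08, -0.05 and -0.06. The nearest to the threshold was Coa4, an assembly factor of complex IV, with a log2 change of 0.36 ± 0.11 for semaglutide averaged over exercise (adjusted p = 0.0519 with limma).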

How the data were processed

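Male db/db mouse muscle was measured by poly(A) RNA sequencing in 12 libraries, 3 per group, grouped by the treatment label. Paired-end reads of 150 bases were taken from stranded libraries, per the labels' protocols. The authors deposited FPKM values in 1 table, and the submitters' processing notes name the build GRCm39, the aligner STAR 2.7.9a, StringTie 2.1.4 and featureCounts 2.0.1, with read trimming by Trimmomatic 0.36. Which of these made the FPKM is not given in the sources used here, nor is any filter.

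FPKM were used as deposited, as log2(FPKM + 1), which understates changes of weak genes. Genes that reached 1 FPKM in 3 or more libraries were fitted with limma 3.58.1 (R 4.3.3; trended, robust empirical Bayes, 4 group means, 8 residual degrees of freedom), two-sided, adjusted over 10666 genes, and the fit was tested on simulated data. The named members were the 5 with the smallest p in each comparison where none passed, and a fixed list given by library. The members, the gene lists and the named genes were chosen with earlier results of these data known. The promoter motifs were also chosen with results known, and the YY1 motif was shortened by its last letter after its matches had been counted. Permutation tests used scipy 1.17.1. Depth was estimated from the smallest FPKM steps (47 to 60 values per library within 2%) of 4431 genes with 1 transcript in GENCODE M21, which belongs to another build than the authors', so coordinates are given for RefSeq promoters on GRCm38.p6 alone. Alternatives were the pseudocount, the filter, 3 rescalings, a replicate block, plain empirical Bayes and leaving out libraries. The labels do not say what a replicate number marks; over all genes, deviations from the group means correlated over 0.1 in all 3 same-numbered pairs of HIIT and combination libraries and in no other pair of groups throughout, so a block was also fitted to those 6 libraries, after the data had been seen.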

Additional observations from a re-analysis of the deposited data

How the results depend on the processing

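With limma no member passed in any of the 8 comparisons or the F test under a pseudocount of 0.1, no filter, 3 rescalings, plain empirical Bayes or the replicate block over all 12 libraries. Left-out libraries gave 0 to 3 called members for semaglutide averaged over exercise (3 without combination 1, 1 without control 3, where 23.9% and 16% of genes were called) and 0 to 3 for the combination against HIIT (3 without combination 1, where 14.8% of genes were called), and 0 elsewhere. After median-of-ratios rescaling the members' median was 0.173 for the combination against controls and -0.0682 for the combination against HIIT, and it turned above 0 for the combination against semaglutide (0.0541) and semaglutide averaged (0.043). It was 0.346 for HIIT against controls and -0.417 for the interaction without the 3 libraries richest in hepatocyte transcripts (control 1, control 2 and HIIT 1), where the lone control is assumed to vary like the other groups. Over left-out libraries the median ran from 0.10 to 0.29 for HIIT, 0.02 to 0.13 for semaglutide and -0.04 to 0.13 for the combination, each against controls. It ran from -0.25 to -0.10 for the combination against HIIT, -0.12 to 0.01 for the combination against semaglutide, -0.08 to 0.00 for semaglutide averaged, 0.03 to 0.12 for training averaged and -0.34 to -0.16 for the interaction. The training difference in the Cox6a2 share ran from -0.602 to 0.298 points, above 0 at 0.211, 0.196, 0.033, 0.228 and 0.298 points without combination 1, HIIT 1, semaglutide 2, control 1 and control 3. The cause of these shifts was not tested. Counts of the 52 members above 0, made after seeing the data, also varied over single left-out libraries. For HIIT against controls they ranged from 42 (without HIIT 3, 51.2% of genes) to 51 (without control 1, 43.3% of genes). For the combination against HIIT they ranged from 6 (without combination 3, 34.9% of genes) to 17 (without HIIT 3, 30% of genes). Same-numbered libraries correlated at -0.226 to 0.294 over 18 pairs, 4 of them over 0.1, and 2 of 12 libraries matched their own number best. With 3 libraries per group, this check cannot tell whether equal numbers mark a shared batch. Of the 4 pairs, 3 are the HIIT and combination pairs. The replicate block over those 6 libraries alone called 2 members, in a fit chosen because of these correlations. With the replicate block over all 12 libraries 0 members were called, and the smallest adjusted p with limma was 0.0866 for Atp5if1 in the combination against HIIT. Values of single members were followed only for the 5 with the smallest p in each comparison. Of these values 796 kept their direction and side of the threshold and 4 passed it (Cox6a1 and Atp5if1 without a library). These members were picked by p in the same data, so the count does not speak for the other members. Over all members, 20 of 52 above 0 became 37 for the combination against semaglutide after median-of-ratios rescaling. The depth limits Cox4i2 most, at 8 to 25 estimated fragments.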
